A study of Rattus norvegicus with 8 samples.

Results

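The extracellular matrix genes described here are the 102 of 4226 rows of a deposited expression table that carry a Gene Ontology (GO) term containing "extracellular matrix" or "collagen". A further 10 rows carry such a term but were left out by name (Adamts2, Adamts5, Ccn1, Ccn2, Tgfb1, Tgfbi, Ibsp, Wnt11, Bmp2 and Sox9). Of the 102 members, 94 are protein-coding, 7 are long noncoding RNAs without a symbol and 1 is a ribosomal RNA. The libraries are RNA-seq of nucleus pulposus cells from rat (Rattus norvegicus), which fill the soft centre of each intervertebral disc. In the SOD1-K123R group (4 libraries) the endogenous superoxide dismutase SOD1 had been knocked down and a form with lysine replaced by arginine was supplied by transfection. In the SOD1-WT group (4 libraries) the same knockdown was followed by wild-type SOD1. The labels give lactate as the treatment of both groups, at 10 mM for 7 days per the study's design text. Column headings of the table begin with L for SOD1-K123R and with Ctrl for SOD1-WT. The labels do not expand these headings, so whether the groups also differ in lactate cannot be told apart from the substitution. The labels do not say whether replicates were separate cultures, so the p-values speak only to variation among these 8 libraries, which may be technical. Library identifiers run consecutively within each group, so any difference in preparation between the groups cannot be told apart from the substitution.

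The matrix of the nucleus pulposus is a hydrated gel of proteoglycans and hyaluronan held in a network of collagen. Cells secrete procollagen chains that are hydroxylated in the endoplasmic reticulum, trimmed outside the cell and cross-linked by lysyl oxidase. Glycoproteins such as thrombospondins and tenascins tie the fibres to cells and growth factors, and matrix metalloproteinases (MMPs) cut the fibres. A shift from synthesis towards cleavage of matrix is a known feature of disc degeneration.

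Values are TPM, transcript abundances which are scaled for transcript length. The rows are part of the genes of a library and summed to 235371 to 243393 TPM in SOD1-K123R, against 187515 to 198656 TPM in SOD1-WT. Sequencing depth is unknown. A gene was tested when its mean over the 8 libraries was at least 1 TPM. Some members averaged under 1 TPM in their lower group and so passed this filter only through the group where they were higher. These were Mmp15, Elf3, Pdgfb and a long noncoding RNA, low in SOD1-WT. Low in SOD1-K123R were Has2, C1qtnf7, Ptx3, Lrrc15, Dpt, Mmp16 and Serac1. They are part of the counts below. A gene is said to have risen or fallen when the Benjamini-Hochberg adjusted p in limma was under 0.05 over all 2890 genes tested. Of these genes 95.7% passed, and whether the rows had been chosen for a difference between the groups is not known here. If they were, the adjusted p would overstate the evidence, and passing sets few genes apart in any case. Fold changes are differences of log2(TPM + 1), SOD1-K123R minus SOD1-WT, given with their standard error (SE), and they understate the change of genes at low TPM. Listed markers of the labelled tissue were few among the rows. Because the rows are part of the genes, absence from them does not show that a marker was unexpressed. Acan and Sox9 are among the rows but were not in the marker lists. Of 19 nucleus pulposus and notochordal markers 5 were present and summed to 31.0 to 48.1 TPM in SOD1-K123R, against 23.6 to 28.1 TPM in SOD1-WT. They did not move together: Cd24 averaged 31.2 TPM in SOD1-K123R and 10.1 TPM in SOD1-WT, and Car12 and Nog were also higher in SOD1-K123R. Cdh2 averaged 2.96 TPM in SOD1-K123R and 9.43 TPM in SOD1-WT, and Car3 was also lower in SOD1-K123R. Col2a1, the main cartilage collagen chain, read 0.08, 0.08, 0.08 and 0.02 TPM in SOD1-K123R and is listed at 0 in all 4 SOD1-WT libraries. Sod1 and genes outside the rows were not analysed here. In such bulk samples fewer cells of a type and less RNA per cell cannot be told apart.

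Most members grouped as proteases rose in SOD1-K123R and most secreted glycoproteins fell. Of 10 tested proteases 8 rose, against 44.6% of all genes tested. After quantile normalization 6 rose, against 44.3%. Adamts14, a procollagen-trimming protease gene counted with collagen maturation, fell. Of listed protease genes outside the GO rule, Plau and Ctsd rose, and Adam12, Adam19, Adamts12 and Tll1 fell. Mmp9 averaged 3749.9 TPM in SOD1-K123R and 1249 TPM in SOD1-WT. Of 13 tested glycoprotein and matricellular genes 10 fell, against 51.1% of all genes tested, among them Thbs1, Thbs2 and Tnc. The collagen cross-linking enzyme gene Lox, the hyaluronan synthase gene Has2 and the BMP antagonist gene Grem1 fell to 355, 0.792 and 347 TPM in SOD1-K123R, against 1061, 15.8 and 2055 TPM in SOD1-WT. Mgp and P4hb, the 2 members with the highest mean TPM, rose.

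Of the 75 members tested, 33 (44.0%) rose and 41 (54.7%) fell, against 44.6% and 51.1% of all genes tested. These shares are near the background, where 95.7% passed in either direction, and the count by itself is no result about matrix genes. The median log2 fold change was -0.84 over the members and -0.49 over all genes tested. SOD1-K123R and SOD1-WT values were fully separate for 72 of 75 members (96.0%), against 91.4% of all genes tested. The members that overlapped were Adamtsl1, Mmp1 and Mmp1b. A change of at least 2-fold was seen upward in 17 members and downward in 30, or 22.7% and 40.0%, against 26.0% and 35.8% of all genes tested. Scaling by median-of-ratios raised the median log2 fold change of all genes tested by 0.35, and after it 34 members rose and 39 fell, against 47.2% and 46.8% of all genes tested. After quantile normalization, which raised that median by 0.24, 29 members rose and 40 fell, against 44.3% and 48.4% of all genes tested. The groups of genes by role used below were set by hand with the values known, and they are described by counts without a test of their own.

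**Figure D1:**
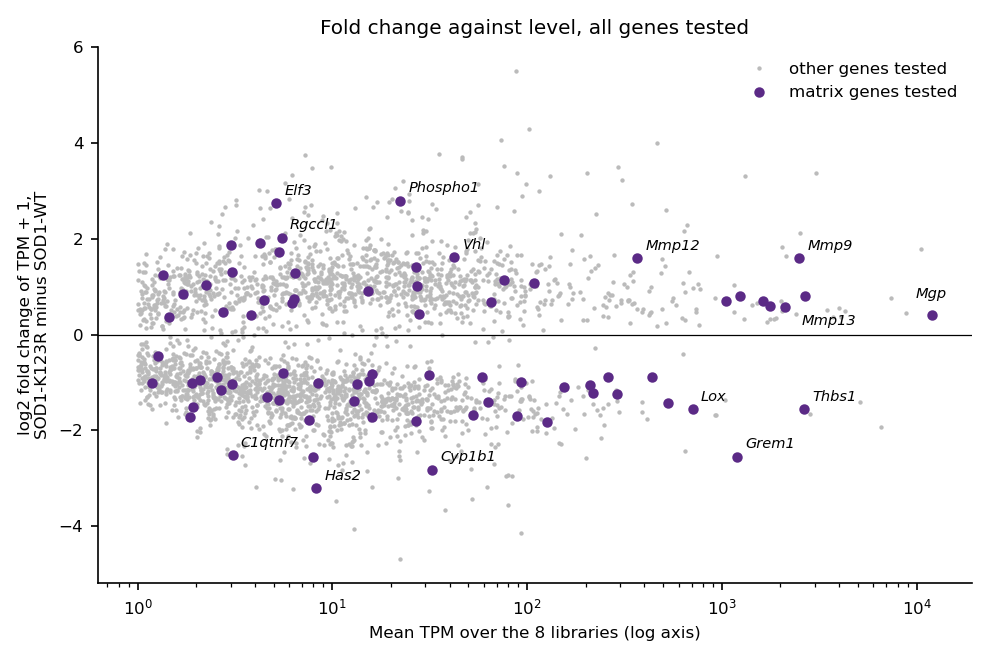
Each point is a tested gene, with its mean TPM over the 8 libraries on a log x axis and its log2 fold change (SOD1-K123R minus SOD1-WT, on TPM + 1) on the y axis; matrix genes are purple and other genes grey. Matrix genes lie on both sides of 0 like the other genes, and the abundant ones run from Grem1 at -2.55 to Mmp9 at 1.59.

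**Figure D2:**
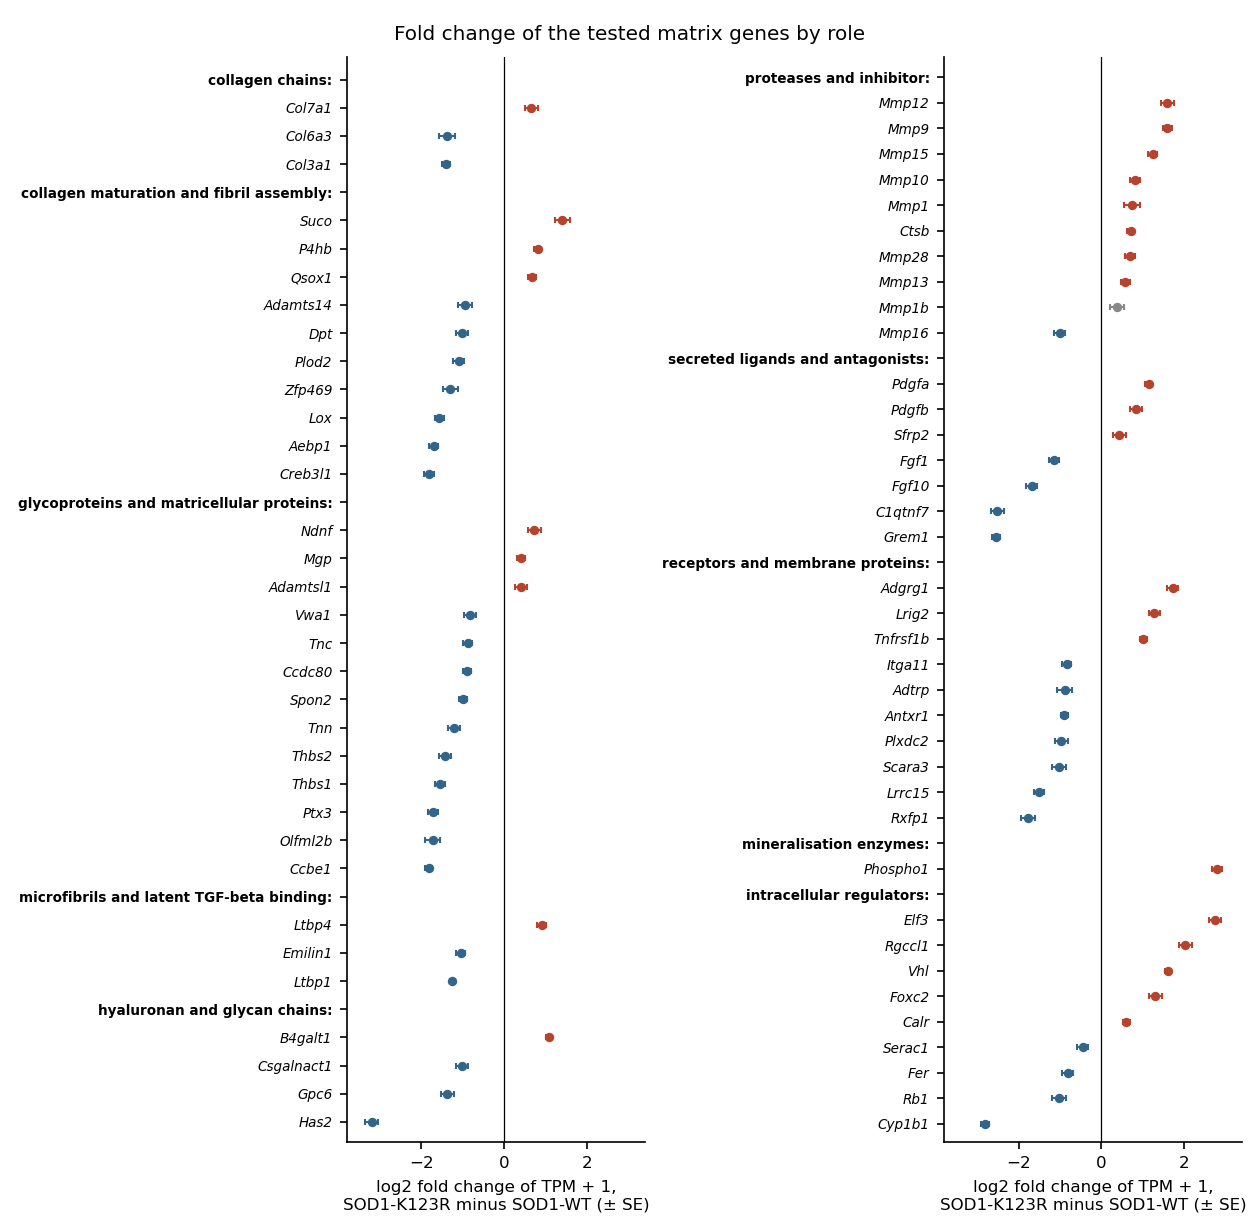
Log2 fold changes of 70 tested members with a symbol, in groups by role, with bars of ± SE; red points rose, blue points fell and the grey point (Mmp1b) did not pass. Proteases lie mostly to the right of 0, while glycoproteins and genes of collagen maturation lie mostly to the left.

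Of the proteases, Mmp13, Mmp12, Mmp1b, Mmp1 and Mmp10 lie in a single cluster of 10 metalloproteinase genes in the RefSeq annotation of the rat assembly GRCr8, of which these 5 were among the rows. Their promoters are shown because 4 of the 5 hold the same pair of short words. Shown are the 120 bases before each RefSeq gene start on the coding strand, in the order of the cluster. Capitals mark the AP-1 word TGACTCA or its reverse complement TGAGTCA, and the TATA box word TATAAA.
Mmp13 promoter (chr8:12782709-12782828, + strand): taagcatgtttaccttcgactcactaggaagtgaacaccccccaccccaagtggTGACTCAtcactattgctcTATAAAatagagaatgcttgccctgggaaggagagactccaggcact
Mmp12 promoter (chr8:12866532-12866651, + strand): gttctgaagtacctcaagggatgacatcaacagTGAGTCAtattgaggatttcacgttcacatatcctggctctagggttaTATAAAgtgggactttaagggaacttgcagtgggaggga
Mmp1b promoter (chr8:12891126-12891245, - strand): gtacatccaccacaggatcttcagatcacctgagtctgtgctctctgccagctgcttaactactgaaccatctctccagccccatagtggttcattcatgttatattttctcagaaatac
Mmp1 promoter (chr8:12943333-12943452, + strand): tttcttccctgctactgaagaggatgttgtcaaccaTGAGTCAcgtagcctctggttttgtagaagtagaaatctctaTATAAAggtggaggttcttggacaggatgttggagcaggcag
Mmp10 promoter (chr8:12974587-12974706, + strand): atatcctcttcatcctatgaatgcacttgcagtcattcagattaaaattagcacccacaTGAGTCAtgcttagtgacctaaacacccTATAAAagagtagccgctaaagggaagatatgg
In Mmp13, Mmp12, Mmp1 and Mmp10 an AP-1 word began 66, 87, 84 and 61 bases before the start. It was followed by a TATA word that began 47, 39, 42 and 33 bases before the start. Neither word was in the window of Mmp1b. Among all 33469 RefSeq promoters, 1.93% held an AP-1 word in these 120 bases, 6.66% held TATAAA on either strand and 0.164% held both. AP-1 is the dimer of FOS and JUN proteins, and a match to its word is a description of the letters and no measure of binding. Over the full 250 bases before the start, 8 of the 46 tested members matched to a promoter held an AP-1 word (17.4%), against 4.05% of all promoters. They were the 4 metalloproteinase genes, Phospho1 and Tnfrsf1b, which rose, and Lrrc15 and Vwa1, which fell. The 4 metalloproteinase genes are neighbours in 1 cluster, shown because they hold the word, and are not independent. Of 7 metalloproteinase members matched to a promoter these 4 held it (57.1%). The share of all promoters includes genes outside the rows, so the members were not compared with the other genes tested. That share also keeps genes with several promoter entries, whereas members with several entries were left out.

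The proteases were among the most abundant members. Mmp9, gelatinase B, which degrades denatured collagen and type IV collagen, read 4023, 3497, 3667 and 3813 TPM in SOD1-K123R, against 1293, 1414, 1018 and 1270.4 TPM in SOD1-WT. All SOD1-K123R libraries lay far above the SOD1-WT libraries, with a log2 fold change of 1.59 ± 0.11 (adjusted p = 2.65e-08). Mmp12, the macrophage elastase, read 660.2, 519.8, 580.0 and 451 TPM in SOD1-K123R, against 144, 209, 226 and 154 TPM in SOD1-WT. The groups were again wide apart, with a log2 fold change of 1.60 ± 0.15 (adjusted p = 6.09e-07). Mmp13, the collagenase that cuts fibrillar collagen including type II, read 2662, 2700.3, 2595 and 2113 TPM in SOD1-K123R, against 1381, 1853, 1871 and 1637 TPM in SOD1-WT. Here the gap was narrower, with SOD1-K123R replicate 4 the lowest of its group, and the log2 fold change was 0.58 ± 0.12 (adjusted p = 0.000383). Mmp10, stromelysin 2, which activates other procollagenases, read 1825, 1535, 1624 and 1302 TPM in SOD1-K123R, against 841, 1048, 975 and 733 TPM in SOD1-WT. Its log2 fold change was 0.81 ± 0.13 (adjusted p = 5.27e-05), with no overlap between the groups.

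Mmp28, epilysin, rose by 0.70 ± 0.12 and Ctsb, the lysosomal cysteine protease cathepsin B, by 0.70 ± 0.08 on the log2 scale. For Mmp28 the levels were 1298 ± 52.6 TPM in SOD1-K123R and 813 ± 162 TPM in SOD1-WT, means ± SD with n = 4 each, as for all such values below. Ctsb read 2109, 1844, 1986 and 2089 TPM in SOD1-K123R, against 1226, 1225, 1254 and 1212 TPM in SOD1-WT, also without overlap. Mmp15, a membrane-anchored metalloproteinase at low level, read 1.97, 2.21, 2.39 and 2.62 TPM in SOD1-K123R, against 0.45, 0.34, 0.36 and 0.43 TPM in SOD1-WT. It rose by 1.24 ± 0.11, whereas Mmp16, another membrane-anchored enzyme, fell by 1.01 ± 0.13 with levels of 0.922 ± 0.229 TPM in SOD1-K123R and 2.88 ± 0.430 TPM in SOD1-WT. Mmp1, the interstitial collagenase, rose by 0.74 ± 0.20 although SOD1-K123R replicate 4 (5.17 TPM) lay below SOD1-WT replicate 2 (5.40 TPM). Mmp1b, its paralog, had a log2 fold change of 0.37 that did not pass (adjusted p = 0.0584). Reads of these paralogs may be split, so both values are uncertain. Without SOD1-K123R replicate 4 the log2 fold change of Mmp1b was 0.57 (adjusted p = 0.000713), and it also passed after median-of-ratios scaling (0.64, adjusted p = 0.00444) and quantile normalization (0.62, adjusted p = 0.00737).

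The calls for abundant proteases depended on scaling. Quantile normalization gives every library the same distribution of values, and median-of-ratios scaling takes most genes as unchanged. Here 95.7% of genes passed and the row sums differed between the groups, so which scaling is right cannot be told. After quantile normalization Mmp13 (-0.070, adjusted p = 0.563), Ctsb (0.13) and Mmp28 (0.20) did not pass, and the sign for Mmp13 turned. Mmp1b passed, so that 6 of 10 proteases rose and 1 fell, against 44.3% and 48.4% of all genes tested. After median-of-ratios scaling 9 of 10 rose, against 47.2% of all genes tested, Mmp9 by 2.08 and Mmp12 by 2.08. Summed over all 10 metalloproteinase members, the level was 10477, 9532, 9741 and 9064 TPM in SOD1-K123R, against 4571, 5525, 4817 and 4444 TPM in SOD1-WT. Every SOD1-K123R sum was above every SOD1-WT sum. The same held for the sum of all rows, at 235371 to 243393 TPM in SOD1-K123R, against 187515 to 198656 TPM in SOD1-WT. Over all 102 members the sums were 35302 ± 952 TPM in SOD1-K123R and 31114 ± 980 TPM in SOD1-WT.

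**Figure D3:**
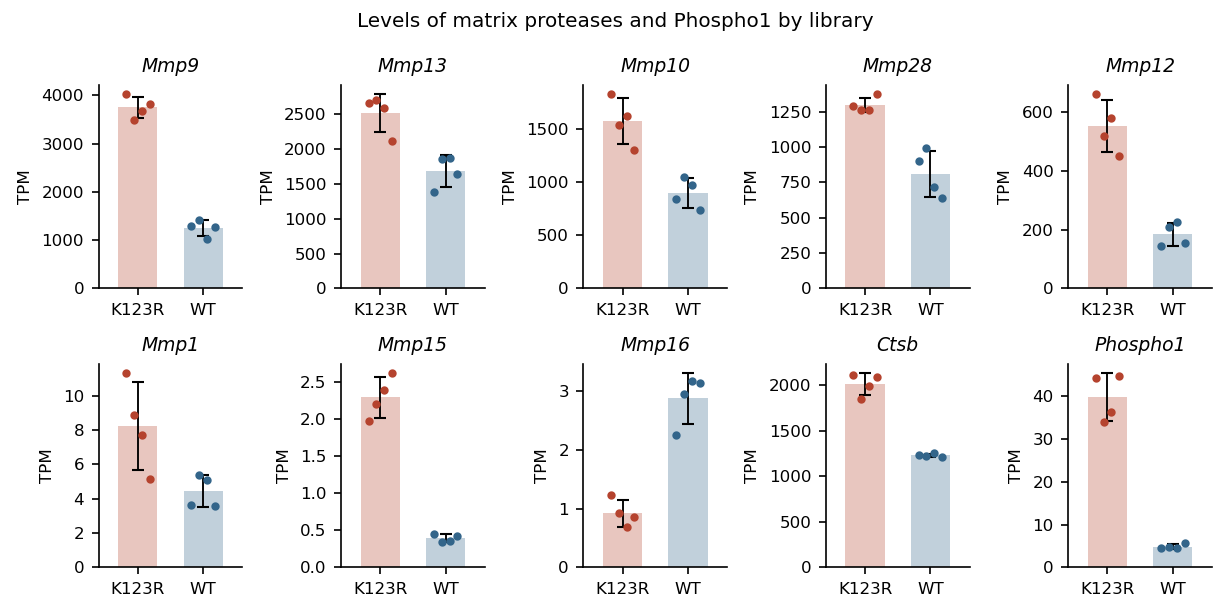
TPM of 9 protease genes and of Phospho1 on axes that start at 0, with 1 point per library, bars for the mean and whiskers for ± SD (n = 4 each); K123R stands for SOD1-K123R and WT for SOD1-WT. The groups overlap for Mmp1 alone among the 10 genes drawn, and Mmp16 is the 1 gene that is lower in SOD1-K123R. The tested protease Mmp1b is not drawn, and its groups also overlap (0.81 to 2.32 TPM in SOD1-K123R, against 0.92 to 1.19 TPM in SOD1-WT). Of all genes tested 91.4% did not overlap.

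Mmp9, Mmp12 and Ctsb are also highly expressed by macrophages. Of 12 macrophage and leukocyte markers 2 were among the rows, and their summed level was 23.4 to 30.9 TPM in SOD1-K123R, against 5.44 to 8.04 TPM in SOD1-WT. Cd68, a lysosomal glycoprotein, read 28.2, 23.1, 22.8 and 29.8 TPM in SOD1-K123R, against 7.16, 5.44, 7.94 and 7.02 TPM in SOD1-WT. Lyz2, lysozyme, read 0.83, 0.99, 0.59 and 1.08 TPM in SOD1-K123R, against 0, 0, 0.10 and 0 TPM in SOD1-WT. Lcp1, an actin-bundling protein of leukocytes and itself a member below the filter, read 0.42, 0.47, 0.55 and 0.36 TPM in SOD1-K123R, against 0.42, 0.22, 0.60 and 0.35 TPM in SOD1-WT. The marker genes were thus higher in SOD1-K123R while Lcp1 overlapped, and their part in the protease values was not tested.

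Most of the tested glycoproteins and matricellular proteins fell, as counted above. Thbs1, thrombospondin 1, an activator of latent TGF-beta and inhibitor of angiogenesis, read 1418, 1361, 1098 and 1502 TPM in SOD1-K123R, against 3487, 3732, 3831 and 4818 TPM in SOD1-WT. Every SOD1-K123R library was far below the lowest SOD1-WT library, and the log2 fold change was -1.56 ± 0.12 (adjusted p = 1.11e-07). Thbs2, which binds metalloproteinases and collagen fibrils, read 245, 291, 288 and 304 TPM in SOD1-K123R, against 646, 702, 661 and 1099.6 TPM in SOD1-WT. It fell by 1.43 ± 0.15, and SOD1-WT replicate 4 stood well above the rest of its group. Tnc, tenascin C, an anti-adhesive protein of remodelling tissue, read 169.8, 178, 194 and 188 TPM in SOD1-K123R, against 299, 306, 358 and 396 TPM in SOD1-WT. Tnn, tenascin N (also called tenascin W), read 94.2, 143, 133 and 151 TPM in SOD1-K123R, against 273, 275, 273 and 390.1 TPM in SOD1-WT. Both tenascins fell without overlap, with log2 fold changes of -0.89 ± 0.10 for Tnc and -1.21 ± 0.15 for Tnn.

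Ccbe1, a collagen-binding secreted protein that promotes the processing of VEGF-C in lymphatic development, read 54.5, 59.8, 52.1 and 54.2 TPM in SOD1-K123R, against 178, 198, 207 and 212 TPM in SOD1-WT. With a log2 fold change of -1.83 ± 0.08 and little spread it had the smallest adjusted p among these glycoproteins (1.47e-09). Spon2, spondin 2, read 51.8, 59.6, 66.9 and 68.2 TPM in SOD1-K123R, against 125, 118, 112 and 138 TPM in SOD1-WT. It fell by 0.99 ± 0.10 without overlap, and Ccdc80, a secreted matrix-binding protein, fell by 0.89 ± 0.10. Olfml2b, an olfactomedin-domain protein of the matrix, fell by 1.73 ± 0.18 with levels of 6.63 ± 0.505 TPM in SOD1-K123R and 25.3 ± 8.93 TPM in SOD1-WT. Ptx3, a pentraxin that stabilises hyaluronan matrix, was at 0.33 ± 0.157 TPM in SOD1-K123R and 3.39 ± 0.282 TPM in SOD1-WT and fell by 1.73 ± 0.12. Vwa1, of the matrix around cartilage cells, fell by 0.82 ± 0.15, but did not pass once scaled by median-of-ratios (-0.37, adjusted p = 0.0599).

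The most abundant member, Mgp, moved against these genes. Matrix Gla protein, which inhibits calcification of cartilage and vessels, read 14113, 13332, 13873 and 13452 TPM in SOD1-K123R, against 10723, 11206, 10855 and 8743 TPM in SOD1-WT. The groups did not overlap, but the rise was small (0.41 ± 0.10, adjusted p = 0.00208), and after quantile normalization the log2 fold change turned to -0.056 (adjusted p = 0.551). Ndnf, a neurotrophic factor, rose by 0.73 ± 0.16 at levels of 5.81 ± 1.46 TPM in SOD1-K123R and 3.06 ± 0.339 TPM in SOD1-WT. Adamtsl1, an ADAMTS-like protein without protease activity, rose by 0.40 ± 0.15 with overlapping groups (3.68 to 5.76 TPM in SOD1-K123R, against 2.45 to 3.80 TPM in SOD1-WT). Its call was lost without SOD1-K123R replicate 1 (log2 fold change 0.30, adjusted p = 0.0724) or without SOD1-WT replicate 4 (0.32, adjusted p = 0.0710).

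Summed over all 16 glycoprotein members, the level was 16084 ± 297 TPM in SOD1-K123R and 16714 ± 361 TPM in SOD1-WT, and most of it was Mgp. Mgp was set apart after its value was seen. Summed without it, the 15 other glycoprotein members amounted to 2364, 2423, 2200.4 and 2580.5 TPM in SOD1-K123R, against 5579, 5879.6, 6082 and 7789 TPM in SOD1-WT. On average Thbs1 made up most of these sums, with 1345 of 2392 TPM in SOD1-K123R and 3967 of 6332 TPM in SOD1-WT. In these sums SOD1-WT replicate 4 was the highest of its group, and it was so for 26 of the 41 members that fell. How often it was highest over all genes tested was not counted. Without that library 31 members rose and 41 fell, while over all genes tested 1286 rose and 1429 fell.

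**Figure D4:**
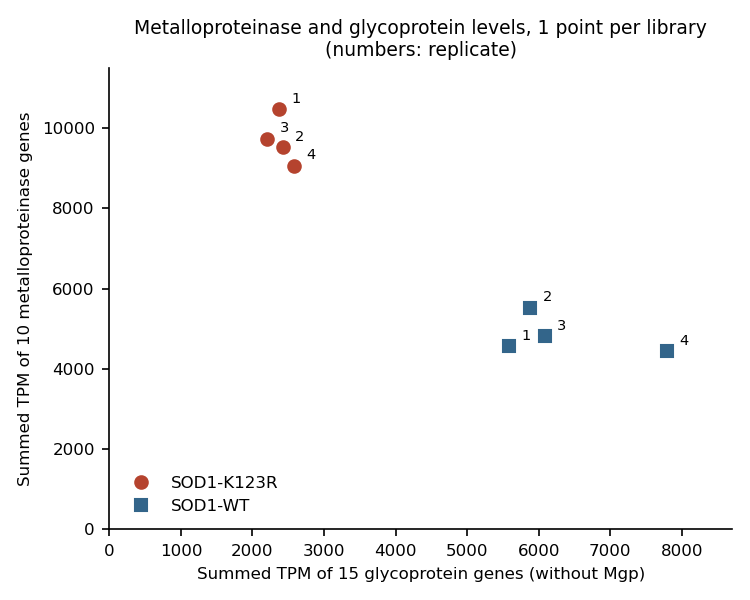
Summed TPM of the 15 glycoprotein members other than Mgp (x axis) against summed TPM of the 10 metalloproteinase members (y axis), 1 point per library with its replicate number, both axes from 0. Mgp was left out after its value was seen, and with it the glycoprotein sums average 16084 TPM in SOD1-K123R and 16714 TPM in SOD1-WT. SOD1-K123R libraries lie at upper left and SOD1-WT libraries at lower right, with SOD1-WT replicate 4 farthest right at 7789 TPM. Thbs1 makes up most of the x values on average (1345 of 2392 TPM in SOD1-K123R and 3967 of 6332 TPM in SOD1-WT).

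Collagen chains were represented by 3 tested genes. Col3a1, of fibrillar type III collagen, read 31.4, 35.4, 37.3 and 31.2 TPM in SOD1-K123R, against 86.5, 80.1, 109.9 and 90.5 TPM in SOD1-WT. Col6a3, of the beaded filaments that surround disc cells, read 6.03, 7.09, 6.51 and 6.58 TPM in SOD1-K123R, against 14.3, 13.6, 23.3 and 26.5 TPM in SOD1-WT. Both fell without overlap (log2 fold changes -1.41 ± 0.11 and -1.38 ± 0.19), and for Col6a3 replicates 3 and 4 of SOD1-WT stood above replicates 1 and 2. Col7a1, of anchoring fibrils, read 8.58, 7.45, 8.63 and 6.50 TPM in SOD1-K123R, against 5.70, 4.26, 5.00 and 3.42 TPM in SOD1-WT and rose by 0.66 ± 0.15, with SOD1-K123R above SOD1-WT in every library. Outside the GO rule, Col18a1, the precursor of endostatin, rose by 0.56 ± 0.09. With it 2 of 4 tested chains rose and 2 fell, against 44.6% and 51.1% of all genes tested. The remaining members of this kind, Col4a3, Col4a4, Col19a1 and Col2a1, read at most 0.33 TPM in every library. Of 12 annulus, tendon and fibroblast markers 2 were among the rows, Col3a1 and Dpt, both members. Of 6 muscle markers 2 were among the rows, and they summed to 1.59 to 2.45 TPM in SOD1-K123R, against 9.07 to 11.5 TPM in SOD1-WT. Their part in the collagen and glycoprotein values was not tested.

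Of 10 tested enzymes and regulators of collagen maturation 7 fell, against 51.1% of all genes tested. Lox, lysyl oxidase, which starts the cross-linking of collagen and elastin, read 375, 376, 328 and 340.3 TPM in SOD1-K123R, against 824, 1013, 1179 and 1225 TPM in SOD1-WT. Plod2, which hydroxylates the lysines used for stable cross-links, read 106, 114, 90.9 and 81.7 TPM in SOD1-K123R, against 173, 199.6, 243 and 232 TPM in SOD1-WT. The SOD1-K123R values of both were below every SOD1-WT value, with log2 fold changes of -1.56 ± 0.12 and -1.10 ± 0.13. Aebp1, a collagen-binding protein that aids fibril assembly, read 42.0, 37.2, 35.1 and 51.9 TPM in SOD1-K123R, against 137, 131, 137 and 138 TPM in SOD1-WT and fell by 1.70 ± 0.11 (adjusted p = 2.40e-08). Creb3l1, a membrane-bound transcription factor that drives collagen genes in mouse bone, fell by 1.81 ± 0.12 with levels of 11.3 ± 1.37 TPM in SOD1-K123R and 42.5 ± 6.32 TPM in SOD1-WT.

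Adamts14, which trims the amino end of procollagen, fell by 0.95 ± 0.16, and Dpt, dermatopontin, fell by 1.02 ± 0.14. Zfp469, whose human counterpart is mutated in brittle cornea syndrome, fell by 1.30 ± 0.17. Among the 3 that rose was P4hb, a subunit of prolyl 4-hydroxylase that is also protein disulfide isomerase, which read 3425, 3173, 3438 and 3540.0 TPM in SOD1-K123R, against 1969, 1895, 1832 and 2054 TPM in SOD1-WT. Its rise of 0.81 ± 0.08 had counterparts in Qsox1 (0.68 ± 0.09), a sulfhydryl oxidase that forms disulfide bonds, and Suco (1.41 ± 0.19), which promotes collagen synthesis in mouse bone. P4hb and Qsox1 act on disulfide bonds of many secreted proteins and not on collagen alone. Calr, a chaperone of the endoplasmic reticulum that also carries a matrix term, read 2059.8, 2071, 2219.7 and 2162 TPM in SOD1-K123R, against 1428, 1387, 1249 and 1556 TPM in SOD1-WT. It rose by 0.60 ± 0.09, but not after quantile normalization (0.010, adjusted p = 0.908).

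**Figure D5:**
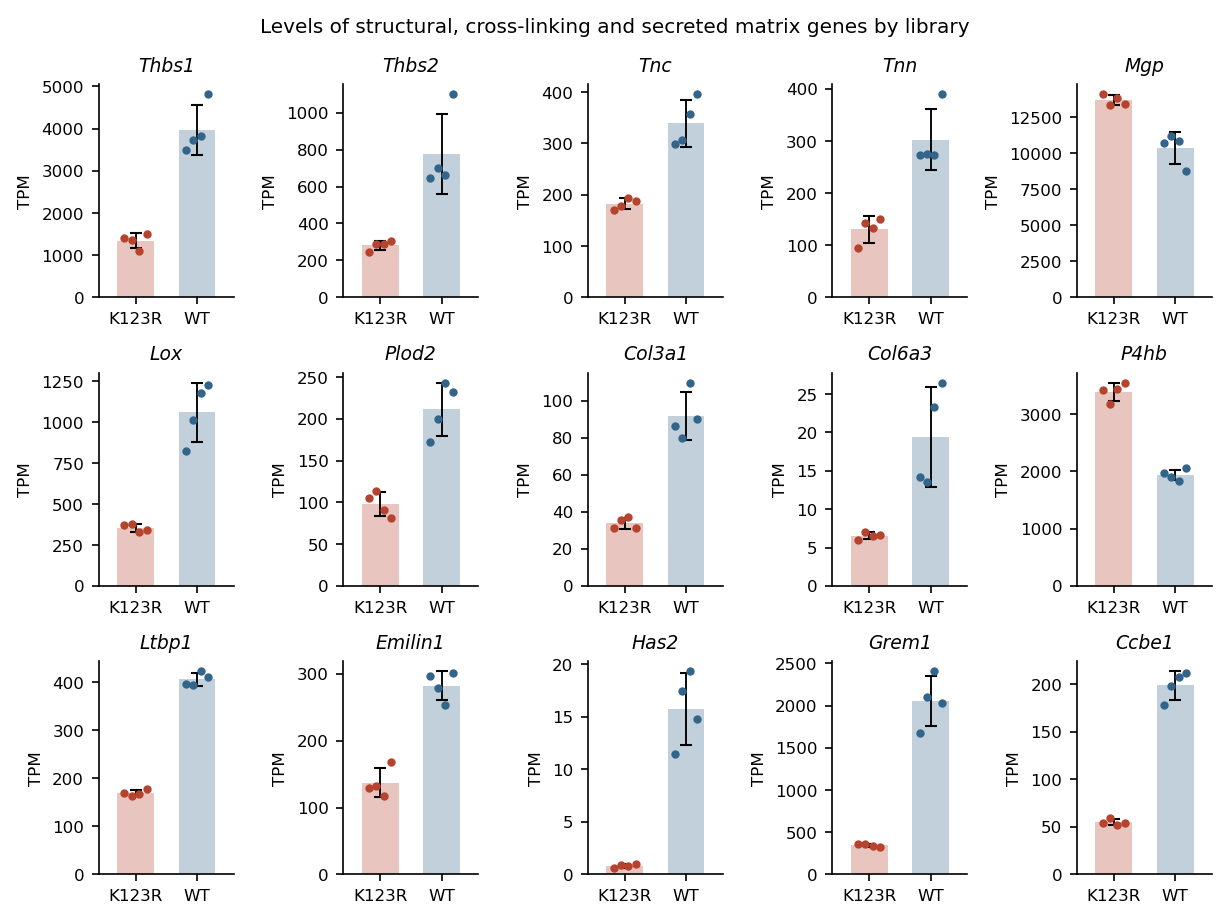
TPM of 15 structural, cross-linking and secreted members on axes that start at 0, with 1 point per library, bars for the mean and whiskers for ± SD (n = 4 each); K123R stands for SOD1-K123R and WT for SOD1-WT. Mgp and P4hb are higher in SOD1-K123R and the other 13 genes are lower, with no overlap between groups. The 15 genes were chosen with results known, and of all genes tested 91.4% did not overlap and 51.1% fell.

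Of the proteins that store TGF-beta in microfibrils, Ltbp1, which binds the latent complex, read 170.4, 164, 168 and 178 TPM in SOD1-K123R, against 397, 395, 423 and 410.1 TPM in SOD1-WT. Ltbp4, of the same family, read 21.4, 21.1, 18.8 and 19.7 TPM in SOD1-K123R, against 10.4, 9.32, 9.41 and 12.2 TPM in SOD1-WT. They changed in opposite directions, with log2 fold changes of -1.25 ± 0.07 for Ltbp1 and 0.91 ± 0.11 for Ltbp4. Emilin1, an elastic-fibre glycoprotein that restrains TGF-beta processing, read 129.8, 132, 118 and 169 TPM in SOD1-K123R, against 297, 278, 254 and 301 TPM in SOD1-WT. Every SOD1-K123R library was below every SOD1-WT library, and it fell by 1.05 ± 0.11.

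Of 5 tested hyaluronan and glycan genes 4 fell, against 51.1% of all genes tested. Has2, which makes hyaluronan at the cell surface, read 0.57, 0.86, 0.79 and 0.95 TPM in SOD1-K123R, against 11.5, 17.4, 19.3 and 14.8 TPM in SOD1-WT. It fell by 3.21 ± 0.16 (adjusted p = 2.44e-09), the largest fall among the members on the log2(TPM + 1) scale. With a pseudocount of 0.1 C1qtnf7 fell further (-4.51, with -4.14 for Has2). Cemip, a hyaluronan-degrading protein outside the GO rule, also fell (21.7 ± 3.96 TPM in SOD1-K123R and 114 ± 12.8 TPM in SOD1-WT). Gpc6, a cell-surface glypican, read 3.16, 2.31, 2.39 and 2.12 TPM in SOD1-K123R, against 5.83, 8.13, 9.20 and 9.41 TPM in SOD1-WT. It was lower in every SOD1-K123R library and fell by 1.38 ± 0.16, and Csgalnact1, which starts chondroitin sulfate chains, fell by 1.02 ± 0.14. B4galt1, a galactosyltransferase, rose by 1.09 ± 0.07 with levels of 148 ± 2.43 TPM in SOD1-K123R and 69.2 ± 4.25 TPM in SOD1-WT.

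Of 7 tested secreted ligands and antagonists 3 rose and 4 fell, against 44.6% and 51.1% of all genes tested. Grem1, gremlin 1, which blocks BMP ligands, read 359, 363, 340.5 and 324 TPM in SOD1-K123R, against 1676, 2101, 2408 and 2035 TPM in SOD1-WT. It fell by 2.55 ± 0.11 (adjusted p = 7.18e-10), with no overlap between the groups. Fgf10, a fibroblast growth factor of limb and lung budding, read 25.5, 30.0, 19.3 and 23.9 TPM in SOD1-K123R, against 67.9, 83.7, 91.3 and 81.0 TPM in SOD1-WT. Fgf1, another fibroblast growth factor, read 1.34, 1.10, 1.21 and 1.44 TPM in SOD1-K123R, against 3.74, 3.62, 4.79 and 4.14 TPM in SOD1-WT. Both fell without overlap (log2 fold changes -1.68 ± 0.13 and -1.16 ± 0.12). The platelet-derived growth factor genes Pdgfa and Pdgfb, by contrast, rose by 1.14 ± 0.09 and 0.85 ± 0.15. For Pdgfa the libraries read 112, 105, 108 and 94.5 TPM in SOD1-K123R, against 45.2, 43.9, 45.0 and 53.8 TPM in SOD1-WT. For Pdgfb they read 2.83, 2.42, 2.98 and 1.75 TPM in SOD1-K123R, against 1.00, 1.03, 1.10 and 0.61 TPM in SOD1-WT. Both were higher in every SOD1-K123R library. C1qtnf7, a secreted protein with a collagen-like stretch, read 0.20, 0, 0.44 and 0.18 TPM in SOD1-K123R, against 6.65, 4.89, 4.71 and 7.51 TPM in SOD1-WT and fell by 2.52 ± 0.16. Sfrp2, a secreted WNT modulator, rose by only 0.43 ± 0.15. Its call was lost without SOD1-K123R replicate 1 (0.33, adjusted p = 0.0569) or without SOD1-WT replicate 4 (0.30, adjusted p = 0.0510).

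Of 10 tested receptors and membrane proteins 7 fell, against 51.1% of all genes tested. Itga11, the integrin alpha chain that binds fibrillar collagen, read 21.4, 22.0, 21.5 and 23.0 TPM in SOD1-K123R, against 40.3, 36.3, 36.4 and 49.0 TPM in SOD1-WT. Antxr1, a collagen-binding receptor also used by anthrax toxin, read 41.5, 41.2, 37.4 and 43.4 TPM in SOD1-K123R, against 72.0, 74.1, 76.5 and 85.0 TPM in SOD1-WT. Both collagen receptors fell (log2 fold changes -0.84 ± 0.10 and -0.89 ± 0.09). Rxfp1, the relaxin receptor, fell by 1.78 ± 0.17, Lrrc15, a marker of matrix-producing fibroblasts, fell by 1.51 ± 0.13 and Scara3, a scavenger receptor, fell by 1.02 ± 0.16. For Rxfp1 the libraries read 3.27, 3.07, 3.18 and 1.92 TPM in SOD1-K123R, against 8.84, 12.9, 15.5 and 12.1 TPM in SOD1-WT, with SOD1-K123R replicate 4 the lowest of all 8. Plxdc2 and Adtrp also fell (-0.97 ± 0.15 and -0.89 ± 0.19). Adgrg1, an adhesion receptor that binds collagen III, went the other way and read 9.20, 8.19, 9.26 and 7.94 TPM in SOD1-K123R, against 1.47, 2.60, 1.92 and 1.80 TPM in SOD1-WT. Its rise of 1.72 ± 0.13 was accompanied by rises of Lrig2 (1.28 ± 0.13), a leucine-rich membrane protein, and Tnfrsf1b (1.02 ± 0.08), the second TNF receptor.

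Phospho1, a phosphatase that releases phosphate for mineral inside matrix vesicles, read 44.2, 33.8, 36.4 and 44.8 TPM in SOD1-K123R, against 4.45, 4.85, 4.45 and 5.73 TPM in SOD1-WT. It rose by 2.79 ± 0.12 (adjusted p = 1.04e-09), the largest rise among the members on the log2(TPM + 1) scale. With a pseudocount of 0.1 Elf3 rose further (3.89, with 3.00 for Phospho1). Alpl, the alkaline phosphatase that acts with it in mineralisation, read at most 0.37 TPM in every library.

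Of 9 intracellular regulators that carry a matrix term 5 rose and 4 fell, against 44.6% and 51.1% of all genes tested. Elf3, an ETS transcription factor of epithelia, read 8.60, 11.5, 9.90 and 8.89 TPM in SOD1-K123R, against 0.67, 0.57, 0.24 and 0.96 TPM in SOD1-WT and rose by 2.75 ± 0.15. Vhl, the ubiquitin ligase subunit that marks hypoxia-inducible factors for degradation, read 65.3, 61.3, 65.3 and 64.8 TPM in SOD1-K123R, against 20.9, 19.4, 20.3 and 20.9 TPM in SOD1-WT. Its rise of 1.61 ± 0.08 rested on tightly grouped libraries (adjusted p = 2.28e-09). Rgccl1, annotated as a regulator of cell cycle like gene, and Foxc2, a forkhead factor of mesenchyme, rose by 2.03 ± 0.16 and 1.30 ± 0.15. Rgccl1 read 10.3, 9.04, 11.3 and 7.08 TPM in SOD1-K123R, against 1.71, 1.94, 1.41 and 1.13 TPM in SOD1-WT. Foxc2 read 4.79, 5.49, 5.46 and 3.42 TPM in SOD1-K123R, against 1.12, 1.74, 1.22 and 1.24 TPM in SOD1-WT. Neither gene overlapped between the groups. Cyp1b1, a monooxygenase of steroids and retinoids, read 7.51, 7.66, 6.78 and 7.23 TPM in SOD1-K123R, against 53.3, 61.0, 62.9 and 53.5 TPM in SOD1-WT and fell by 2.82 ± 0.09 (adjusted p = 1.63e-10, the smallest of all members). Rb1, the retinoblastoma protein gene, fell by 1.02 ± 0.17, and Fer, a tyrosine kinase, fell by 0.81 ± 0.14. Serac1, a protein of phospholipid exchange, fell by 0.46 ± 0.13, but did not pass once scaled by median-of-ratios (-0.20, adjusted p = 0.123).

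Lists of matrix genes that do not depend on the GO terms gave further values. They leave out Adamts1, Adamts2, Adamts4, Adamts5, Adamts7 and Timp3, which are among the rows, so the protease and inhibitor counts are incomplete. In the list of 58 matrix-degrading proteases 16 were among the rows and 14 were tested, of which 9 are members already counted. Of the 14, 10 rose and 4 fell, against 44.6% and 51.1% of all genes tested. Beyond the members, Plau, the urokinase plasminogen activator, rose to 262 TPM in SOD1-K123R, against 76.3 TPM in SOD1-WT, and Ctsd, cathepsin D, rose by 0.77 ± 0.09. The 4 that fell were Mmp16 and the ADAM-type genes Adam12 (-2.29 ± 0.13), Adam19 (-2.80 ± 0.11) and Adamts12 (-1.33 ± 0.15). After quantile normalization 7 of these 14 rose and 4 fell, against 44.3% and 48.4% of all genes tested. Of 3 tested basement membrane genes, the netrin genes Ntn1 and Ntn4 fell (log2 fold changes -1.36 ± 0.09 and -1.86 ± 0.09) and Lamb3, a laminin chain, rose by 1.07 ± 0.15. In the list of matrix glycoproteins 9 of 11 fell and 2 rose, against 51.1% and 44.6% of all genes tested. Of these 11 genes, 9 are members. Ccn4, a matricellular protein outside the GO rule, was among those that fell (-2.21 ± 0.14). Of 12 tested ligands and regulators, 4 of them members, 6 rose and 5 fell, against 44.6% and 51.1% of all genes tested. Gdf5, a growth factor of joints, did not pass (0.32, adjusted p = 0.0948). Tll1, a protease that trims procollagen, fell by 1.56 ± 0.15. In the list of protease inhibitors and receptors, Tfpi2, an inhibitor, and Plaur, the urokinase receptor, were tested, with log2 fold changes of 0.46 and 0.20 that did not pass but did after median-of-ratios scaling (0.83 and 0.68). Below the filter in that list were the inhibitor genes A2m, Spint1 and Timp2, and Timp2 read 1.55, 1.29, 1.27 and 0.63 TPM in SOD1-K123R, against 0.34, 0.31, 0.43 and 0.31 TPM in SOD1-WT.

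Below the filter lay 27 members, 24 of them with a symbol. Besides the collagen chains, Alpl, Lcp1 and 1 gene with a locus name these were P3h2, Adamts3, Myoc, Matn2, Fbn2, Hapln1, Gpc2, Mmp24, Adamts15, Spint1, C1qtnf3, C1ql2, Fcna, Itga2b, Lrrc66, Myb and Rn28s. Hapln1, the link protein of hyaluronan and aggrecan, was just under the filter with a mean of 0.99 TPM over the 8 libraries, and Dpt was just above it with 1.18 TPM. Hapln1 read 0.39, 0.24, 0.56 and 0.31 TPM in SOD1-K123R, against 1.22, 1.22, 2.66 and 1.32 TPM in SOD1-WT. Of the 7 long noncoding RNAs, 4 were tested and rose, against 44.6% of all genes tested. The most abundant averaged 7.29 TPM in SOD1-K123R, against 1.20 TPM in SOD1-WT.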

How the data were processed

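The authors deposited 1 table of TPM per gene and library, made with RSEM going by the table's name; TPM keep no sequencing depth. DESeq2 is named in the submitters' processing notes without a role or version; the aligner and genome build were not given in sources used here. Both groups have 4 libraries, and 0 sample columns were left unused.

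TPM were used as deposited. log2(TPM + 1) of the 2890 genes averaging 1 TPM or more across all 8 libraries was fitted in limma 3.58.1 (R 4.3.3), moderated test, SOD1-K123R minus SOD1-WT, Benjamini-Hochberg adjustment over all 2890 genes, threshold 0.05. The fit was tested on simulated data. Most genes were unchanged in that simulation, whereas 95.7% of genes passed here, so it does not speak to the fit in this setting. Because the table holds part of the genes, shares of all genes tested describe these rows only.

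Members, lists and roles were chosen with earlier results of these data known, and roles were assigned by hand after values were seen. Values in every library are given for the 8 members with the highest mean TPM, the 6 largest changes in each direction with at least 5 TPM in the higher group, and, by adjusted p, the leading members of each list, 3 at most; further genes were added after their values were seen. The values of 1 tested member are not reported here, though it is counted. Alternatives were median-of-ratios scaling, quantile normalization, a pseudocount of 0.1, no filter, a filter of 5 TPM, a replicate block, matrix terms alone and leaving out each library. Promoter sequences are from RefSeq (GRCr8), matched by symbol for 46 of 71 tested members with a symbol.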

Additional observations from a re-analysis of the deposited data

Results flagged for a closer look

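In 13 of 142 groups of 4 libraries, 1 per gene and group, 1 library stood apart by Dixon's test at the 95% level. Chance alone flags about 1 in 20 such groups. Of the 13, 12 are given here. The libraries concerned were mostly SOD1-K123R replicate 2 and SOD1-WT replicate 4.

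In SOD1-K123R, replicate 2 was high for Adamts14 at 1.41 TPM, with the other 3 libraries at 0.94 to 1.02 TPM. It was also high for Dpt at 0.69 TPM, with the others at 0.32 to 0.38 TPM. The same library was low for Vwa1 at 9.24 TPM (rest 11.65 to 11.85 TPM) and for Vhl at 61.34 TPM (rest 64.78 to 65.31 TPM). SOD1-K123R replicate 4 was low for Rxfp1 at 1.92 TPM (rest 3.07 to 3.27 TPM).

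In SOD1-WT, replicate 4 was high for Thbs2 at 1099.63 TPM (rest 646.42 to 702.45 TPM), for Tnn at 390.07 TPM (rest 273.13 to 275.28 TPM) and for Olfml2b at 38.56 TPM (rest 19.83 to 22.16 TPM). It was also high for Plxdc2 at 28.07 TPM (rest 18.12 to 18.91 TPM) and for Pdgfa at 53.77 TPM (rest 43.89 to 45.16 TPM), and low for Mmp1b at 0.92 TPM (rest 1.16 to 1.19 TPM). SOD1-WT replicate 2 was low for Ndnf at 2.55 TPM (rest 3.20 to 3.26 TPM).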

How the results depend on the processing

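The median log2 fold change of the members, -0.84, was -0.40 after median-of-ratios scaling, -0.66 after quantile normalization, -0.89 with a pseudocount of 0.1 and -0.068 with no filter on low values. Leaving out each library in turn gave medians of -0.88 to -0.79, 31 to 34 members higher and 41 to 42 lower, and 1254 to 1303 of all genes higher and 1420 to 1497 lower. With a filter of 5 TPM, which tests fewer genes, 897 of all genes were lower, against 1476 with a filter of 1 TPM. After quantile normalization Mgp (-0.056) and Mmp13 (-0.070) changed sign, and the cause was not tested. Members with an extracellular matrix term alone gave 26 higher and 32 lower, in a fit where 44.6% and 51.1% of all genes tested were higher and lower. The replicate block gave 34 members higher and 41 lower, with 1282 of all genes higher and 1461 lower, and a median of -0.84 for the members. It changed no member call but that of Mmp1b, which then passed. Deviations of same-numbered libraries correlated at -0.35, 0.016, -0.204 and 0.0536, so the numbers were not taken as a pairing. TPM keep no depth, so no counting error could be given.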
